A study of Mus musculus with 3 samples.

Results

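The phagocyte NADPH oxidase and the enzymes that remove its products were followed across 3 populations of colonic myeloid cells. The genes were taken by symbol from the deposited tables. They were Cybb, Cyba, Ncf1, Ncf4 and Rac2 of the oxidase, and Sod2, Cat, Gpx1 and Txnrd1 of redox defence. All 9 were found among the 24346 symbols listed. One population was labelled CD64- dendritic cells (DC), the next CD64+ macrophages, and the last Gr-1+ CD11b+ cells, a mixed gate of neutrophils and monocytes that is called Gr-1+ cells here. All came from colons of BALB/c mice described as healthy, and no treatment, genotype or age was named. Each population was represented by 1 RNA-seq library, and the number of mice behind a library was not given in the sources used here. There is thus no spread between samples, no test and no p-value.

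The phagocyte oxidase is an enzyme of membranes that moves electrons from cytosolic NADPH to oxygen and so makes superoxide, which phagocytes use against ingested microbes. Its membrane core is made of the catalytic subunit encoded by Cybb and its partner encoded by Cyba, and cytosolic subunits, among them those encoded by Ncf1 and Ncf4, join it together with a Rac GTPase when the cell is activated. Superoxide is turned into hydrogen peroxide by superoxide dismutases, and peroxide is removed by catalase, glutathione peroxidases and the peroxiredoxin and thioredoxin systems, the latter pair drawing on NADPH as well.

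Promoter sequence is shown for 3 of the genes. Cybb and Sod2 were the members with the largest differences between libraries, and Txnrd1 was the only member with an antioxidant response element core in the windows searched. Each window holds the 250 bases before an annotated transcription start, 5′ to 3′ on the strand of the gene, from RefSeq on GRCm38.p6. Capitals mark the matches to 4 motif cores, read on both strands, and a match on the minus strand is capitalised where it lies.

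Cybb, chrX:9469325-9469574, minus strand: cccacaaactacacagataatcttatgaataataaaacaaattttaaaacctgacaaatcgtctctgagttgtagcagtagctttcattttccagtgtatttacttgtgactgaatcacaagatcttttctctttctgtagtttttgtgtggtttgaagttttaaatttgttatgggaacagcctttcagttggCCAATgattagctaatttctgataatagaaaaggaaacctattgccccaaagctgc

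Sod2, chr17:13007589-13007838, plus strand: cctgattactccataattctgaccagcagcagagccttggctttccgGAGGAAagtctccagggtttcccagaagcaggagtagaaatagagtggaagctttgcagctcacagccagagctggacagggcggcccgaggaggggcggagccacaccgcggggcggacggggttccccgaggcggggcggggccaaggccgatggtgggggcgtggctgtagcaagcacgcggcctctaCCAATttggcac

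Txnrd1, chr10:82858956-82859205, plus strand: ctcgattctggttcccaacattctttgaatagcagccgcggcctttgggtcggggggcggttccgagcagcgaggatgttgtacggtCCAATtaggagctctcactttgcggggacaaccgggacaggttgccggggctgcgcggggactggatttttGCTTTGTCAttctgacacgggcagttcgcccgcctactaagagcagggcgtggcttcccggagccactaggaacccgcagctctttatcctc

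The cores searched were GAGGAA of the myeloid factor PU.1, TGACNNNGC of the antioxidant response element bound by NRF2, GGGANTTTC of NF-kB sites and the CCAAT box. The motifs were chosen with the sequences and first matches in view. A wider NF-kB core, which had matched every member with a window and a large share of all windows, was replaced by the stricter one given here, and the CCAAT box was added after the Cybb window was read. The matches do not overlap each other in the windows shown. Windows were matched for 7 of the 9 members, and Txnrd1 had 3 windows because it has several annotated starts. Entries for Ncf4 and Rac2 were missing. The antioxidant response element core was found in 1 of these 9 member windows and in 10.2% of all 32851 windows of this length. In the Txnrd1 window it lies on the minus strand, starting 92 bases before the start site. GAGGAA was found for 3 members, Sod2, Cat and Txnrd1, in 3 of the 9 member windows, and in 23.3% of all windows. CCAAT was found for 4 members, Cybb, Sod2, Cat and Txnrd1, in 4 of the 9 member windows, and in 33.8% of all windows. GGGANTTTC was found for 0 members and in 0.941% of all windows. A match is a run of letters and not a measured binding site.

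All values below are FPKM, fragments scaled to transcript length and to the mapped fragments of the library, which allows levels of different genes to be set side by side within a library. The libraries differed in depth and in background. By the size of single-fragment steps in the values, the DC and macrophage libraries were 3.58 and 2.69 times as deep as that of Gr-1+ cells. The silent-gene level, the 95th percentile of 1452 olfactory and vomeronasal receptor genes, was 0.611 FPKM for DC, 3.24 for macrophages and 9.69 for Gr-1+ cells, and lower values are not read as expression. Intervals in brackets are 95% Poisson intervals on an estimated number of fragments. They cover counting error only and no spread between samples. Where copies of 1 molecule made by amplification are counted again, the intervals are too narrow even for counting error. In these bulk sorts, fewer cells of a type and less RNA per cell cannot be told apart.

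The sums of neutrophil, macrophage and dendritic cell markers were each highest in the library of that label. The sum of monocyte markers was lowest in Gr-1+ cells, whose label names monocytes, but their median was lowest in DC. The 10 neutrophil markers summed to 168904 FPKM in Gr-1+ cells, 4327 in macrophages and 1683 in DC. The 10 macrophage markers summed to 33343 FPKM in macrophages, 13334 in Gr-1+ cells, where Cd14 made up most of the sum and exceeded its macrophage level (10998 against 5981), and 3669 in DC. The 10 dendritic cell markers summed to 1512, 423 and 87.9 FPKM across DC, macrophages and Gr-1+ cells. Ccr7 made up most of the DC sum, at 1004, and the medians were 23.1, 5.89 and 3.35 FPKM. The 6 monocyte markers summed to 1534, 3507 and 1157 FPKM, with medians of 28.2, 407 and 112. Of these 6, 4 were higher and 2 lower in Gr-1+ cells than in DC, and 6 were lower than in macrophages. Of the dendritic cell markers, 8 were higher and 2 lower in DC than in macrophages. The lower ones were Batf3, at 20.6 against 42.1 FPKM, and Xcr1, at 2.83 against 3.30. The 6 B and plasma cell markers summed to 22513 FPKM in DC against 1158 and 428 in macrophages and Gr-1+ cells. The 8 colon epithelium markers summed to 685, 418 and 1383 FPKM across DC, macrophages and Gr-1+ cells. The part of these other cells in the results below was not tested.

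**Figure D1:**
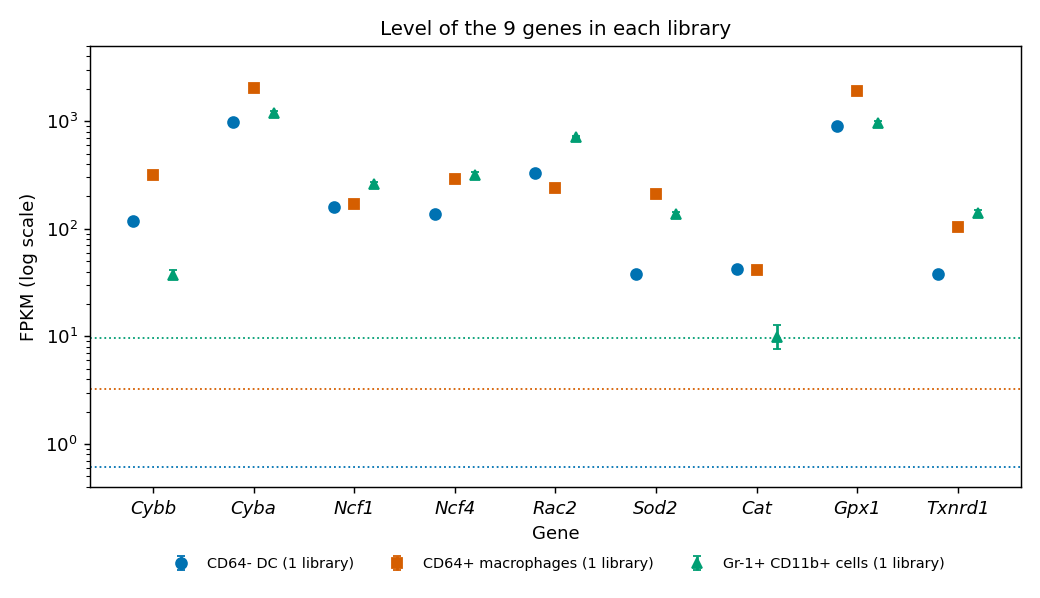
Level of the 9 genes in the 3 libraries, as FPKM on a log axis. Each point is 1 library, bars are 95% counting intervals, and dotted lines are the silent-gene levels of the libraries in the same colours (0.611, 3.24 and 9.69 FPKM). Cyba and Gpx1 sit highest in each library, and catalase (Cat) in Gr-1+ cells lies on the silent-gene line of that library.

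Transcripts of the membrane core of the oxidase were most abundant in macrophages, and those of its catalytic subunit were lowest in Gr-1+ cells. Cybb, on chromosome X at 9435252 to 9487771 (minus strand, GRCm38), encodes the subunit that carries the electrons across the membrane. It was at 313 FPKM (307 to 320) in macrophages, 119 (116 to 122) in DC and 37.4 (33.9 to 41.3) in Gr-1+ cells. The 3 values were well apart on the scale of counting error, and the macrophage level was 8.36-fold that of Gr-1+ cells and 2.63-fold that of DC.

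Cyba, on chromosome 8 at 122424776 to 122432930 (minus strand), encodes the smaller core subunit that stabilises the catalytic one and anchors the cytosolic subunits. It was at 2053 FPKM (2011 to 2095) in macrophages, 1200 (1148 to 1254) in Gr-1+ cells and 976 (952 to 1002) in DC. Macrophages were again highest, and the whole range was 2.10-fold. Gr-1+ cells stood above DC here, an order that turned with equal library sums. Cyba ranked 41st, 78th and 91st among all genes of macrophages, Gr-1+ cells and DC, whereas Cybb ranked 434th, 1749th and 877th. BC017643, listed here beside the core subunits, was at 83.1, 57.3 and 40.2 FPKM across DC, macrophages and Gr-1+ cells.

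The cytosolic subunits were ordered differently from the core. Ncf1, on chromosome 5 at 134220053 to 134229625 (minus strand), encodes the organiser subunit that is phosphorylated on activation and docks on the core. It was at 261 FPKM (248 to 273) in Gr-1+ cells, 170 (164 to 176) in macrophages and 160 (155 to 165) in DC. The latter pair had overlapping counting intervals, and Gr-1+ cells lay above both.

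Ncf4, on chromosome 15 at 78244801 to 78262580 (plus strand), encodes a subunit that binds a phosphoinositide of phagosome membranes. It was at 318 FPKM (299 to 338) in Gr-1+ cells, 292 (281 to 303) in macrophages and 139 (132 to 146) in DC. Here the counting intervals of Gr-1+ cells and macrophages overlapped and DC was lowest.

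Rac2, on chromosome 15 at 78559167 to 78572783 (minus strand), encodes the Rac GTPase of blood cells that completes the active oxidase. It was at 713 FPKM (693 to 733) in Gr-1+ cells, 330 (323 to 338) in DC and 238 (231 to 245) in macrophages. It was the only member with its lowest level in macrophages as deposited, and with equal library sums Ncf1 was lowest there too. Its widely used relative Rac1 was at 222, 159 and 295 FPKM in those libraries, so macrophages had the lowest Rac2 and the highest Rac1. Epithelial markers were also ordered as Gr-1+ cells, DC and macrophages, and their part in the Rac2 values was not tested.

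Ratios between genes of 1 library do not depend on how the libraries are scaled to each other, and they gave the clearest contrast in the composition of the oxidase. The ratio of Cybb to Cyba was 0.122 (0.117 to 0.127) in DC, 0.153 (0.148 to 0.157) in macrophages and 0.0312 (0.0280 to 0.0347) in Gr-1+ cells, a 4.89-fold range. The ratio of Ncf1 to Cybb was 1.34 (1.29 to 1.40), 0.543 (0.521 to 0.566) and 6.96 (6.24 to 7.77) in the same order, a 12.8-fold range. Transcripts of the organiser thus outnumbered those of the catalytic subunit per length in DC and Gr-1+ cells, and the reverse held in macrophages.

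Among the summed FPKM of Cybb, Cyba, Ncf1 and Ncf4, Cybb made up 8.54% for DC, 11.1% for macrophages and 2.06% for Gr-1+ cells. The share of Cyba was 70.1%, 72.6% and 66.1%, that of Ncf1 11.5%, 6.01% and 14.4%, and that of Ncf4 9.95%, 10.3% and 17.5%. The sum itself was 1394, 2827 and 1816 FPKM. Most of each sum was Cyba, whose order between Gr-1+ cells and DC turned with equal library sums.

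Between the cytosolic subunits the ratio varied less. Ncf1 to Ncf4 was 1.15 (1.09 to 1.22) in DC, 0.582 (0.553 to 0.614) in macrophages and 0.819 (0.759 to 0.885) in Gr-1+ cells, so the organiser exceeded its partner in DC and not in the other libraries. Rac2 to Rac1 was 2.08 (2.01 to 2.16), 0.805 (0.775 to 0.836) and 3.22 (3.05 to 3.39), so Rac1 exceeded Rac2 in macrophages and not in the other libraries. B cells also use cytosolic oxidase genes and Rac2. B and plasma cell markers were highest in DC, as given above, and their part in the DC ratios was not tested.

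**Figure D2:**
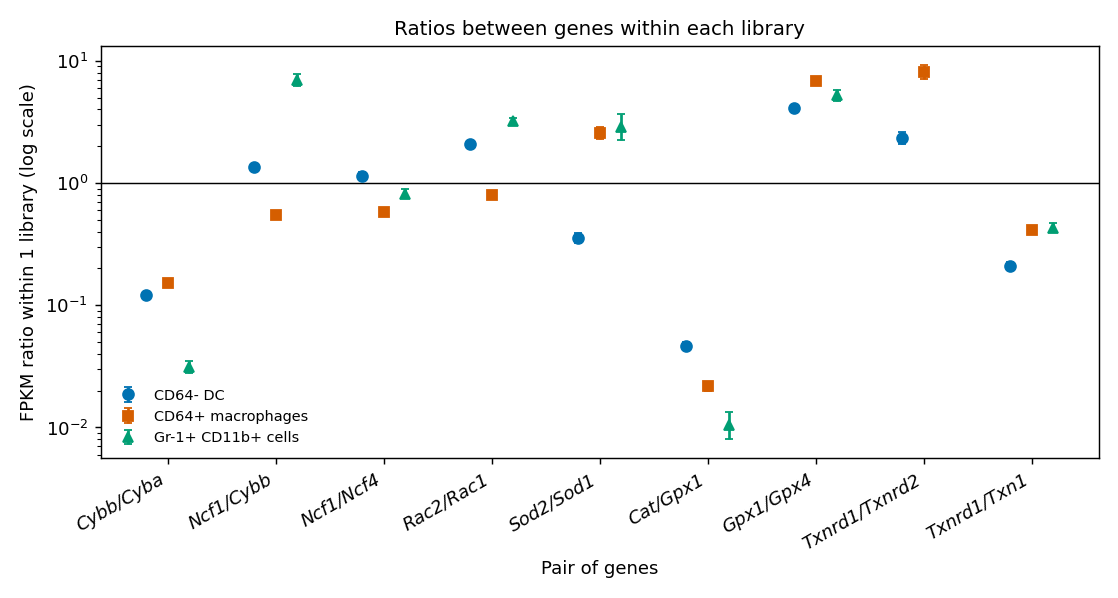
Ratio of FPKM between pairs of genes within each library, on a log axis with a line at 1. Each point is 1 library and bars are 95% counting intervals. The ratio of Txnrd1 to Txnrd2 is not drawn for Gr-1+ cells, where Txnrd2 lies below the silent-gene level, and their Cat to Gpx1 point is read only through the upper end of its bar because Cat lies at that level. The Cybb to Cyba ratio of Gr-1+ cells (0.0312) lies below those of DC (0.122) and macrophages (0.153), and their Ncf1 to Cybb ratio (6.96) above 1.34 and 0.543.

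Of the defence genes, Sod2 differed most. It encodes the manganese superoxide dismutase of mitochondria, a gene known to be induced by inflammatory cytokines, and lies on chromosome 17 at 13006846 to 13040063 (plus strand). It was at 211 FPKM (206 to 215) in macrophages, 137 (130 to 143) in Gr-1+ cells and 38.1 (36.3 to 39.9) in DC, with the macrophage level 5.53-fold that of DC. The cytosolic dismutase gene Sod1 was ordered otherwise, at 82.0, 47.3 and 107 FPKM in the same libraries. The ratio of Sod2 to Sod1 was 2.57 (2.30 to 2.87) in macrophages, 2.89 (2.27 to 3.68) in Gr-1+ cells and 0.354 (0.322 to 0.390) in DC. Sod2 transcripts thus exceeded those of Sod1 in both macrophages and Gr-1+ cells, whose intervals overlapped, and not in DC. The extracellular dismutase gene Sod3 was at 19.3, 13.3 and 19.4 FPKM across DC, macrophages and Gr-1+ cells, and Ccs, the copper chaperone of Sod1, at 29.1, 44.8 and 14.5.

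Catalase and glutathione peroxidase, which both remove hydrogen peroxide, stood at very different levels. Cat, on chromosome 2 at 103453849 to 103485160 (minus strand), encodes the catalase of peroxisomes. It was at 41.9 FPKM (39.2 to 44.8) in DC, 41.3 (38.1 to 44.5) in macrophages and 9.95 (7.56 to 12.9) in Gr-1+ cells. DC and macrophages were level within counting error. The value in Gr-1+ cells rested on about 58 fragments and was 1.03 times the silent-gene level of that library, so it cannot be told from background there.

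Gpx1, on chromosome 9 at 108338903 to 108340343 (plus strand), encodes the main cytosolic glutathione peroxidase, a selenoprotein. It was at 1906 FPKM (1873 to 1940) in macrophages, 958 (919 to 998) in Gr-1+ cells and 897 (877 to 917) in DC. Macrophages were highest, and the order of Gr-1+ cells and DC turned with equal library sums. Across the libraries Gpx1 and Cyba were the closest pair among the members. Their log2 values, each centred on its mean over the 3 libraries, differed by at most 0.14. Such closeness was common, as 73 genes outside the members lay within 0.2 of Cyba and 74 within 0.2 of Gpx1. The ratio of Cat to Gpx1 was 0.0467 (0.0436 to 0.0501) in DC and 0.0216 (0.0200 to 0.0234) in macrophages. In Gr-1+ cells, where Cat was at the silent-gene level, only an upper limit of 0.0135 is read, from the counting interval. Catalase and glutathione peroxidase are also abundant in red blood cells. The 4 red cell markers read summed to 531, 326 and 537 FPKM across DC, macrophages and Gr-1+ cells, mostly from the globin gene Hba-a1 at 451, 249 and 525. The other main globin gene, Hbb-bs, was at 70.1, 66.5 and 0.0173. The last value is far below the 0.445 FPKM that 1 fragment is worth on 1 kb in Gr-1+ cells, so it is not read as a level. Alas2 was at 9.07, 10.1 and 12.3, and Hba-a2 was below 1 FPKM in each. The part of red cells in the values of Cat and Gpx1 was not tested.

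The ratio of Gpx1 to Gpx4, which protects membrane lipids, was 4.08 (3.87 to 4.30) in DC, 6.84 (6.50 to 7.20) in macrophages and 5.23 (4.71 to 5.81) in Gr-1+ cells. Gpx1 was thus the more abundant of the pair in all 3 libraries.

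Txnrd1, on chromosome 10 at 82833951 to 82897712 (plus strand), encodes the cytosolic thioredoxin reductase, a selenoprotein that passes electrons from NADPH to thioredoxin. It was at 141 FPKM (133 to 149) in Gr-1+ cells, 105 (100.5 to 109) in macrophages and 38.0 (35.8 to 40.3) in DC. DC thus held the lowest level, as for Sod2, but the order of the other libraries was the reverse. The ratio of Txnrd1 to Txn1, its substrate, was 0.211 (0.195 to 0.228) in DC, 0.413 (0.387 to 0.440) in macrophages and 0.432 (0.394 to 0.473) in Gr-1+ cells, of which the latter pair overlapped. Against the mitochondrial reductase gene Txnrd2, the ratio was 2.33 (2.07 to 2.61) in DC and 8.11 (7.07 to 9.30) in macrophages. Txnrd2 was below the silent-gene level in Gr-1+ cells, at 2.80 FPKM.

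Differences between libraries were read on the log2(FPKM + 1) scale, which understates those of low genes. A gene was called higher or lower when the difference was 2 or more and the higher library was at 10 FPKM or more. Of the 27 differences of the 9 members, 2 passed. In DC against macrophages, Sod2 was lower in DC, with a difference of -2.44, and 0 members were higher. Over all 17329 genes reaching 1 FPKM in any library, 2.31% were lower and 1.53% higher. Only genes among the 7087 at 10 FPKM or more in any library could pass, and 401 of them were lower and 266 higher in DC. Shares of all genes, here and below, are thus smaller than shares of that group. The median of the members was -1.07, and that of all 17329 genes was -0.05.

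In Gr-1+ cells against macrophages, Cybb was lower, with a difference of -3.03, and 0 members were higher. Of all genes 3.41% were lower and 1.41% higher. The members' median was -0.62 against 0.10. In Gr-1+ cells against DC, 0 members passed in either direction, where 3.65% of all genes were higher and 6.28% lower. The members' median was 0.70 against 0.01. Counts of 1 or 0 in 9 genes are too small to be set apart from these shares.

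Several members came close to the size rule. Cat was at -1.97 in Gr-1+ cells against DC and at -1.95 against macrophages. In Gr-1+ cells Txnrd1 was at 1.86, Sod2 at 1.82 and Cybb at -1.64 against DC, and Rac2 at 1.58 against macrophages. Scaling decided some of them. With median-ratio scaling, Sod2 and Txnrd1 passed against DC at 2.58 and 2.63 and Rac2 against macrophages at 2.16, whereas with equal library sums Cybb and Cat passed as lower than in DC at -2.01 and -2.32. Among genes at 10 FPKM or more in any library, a group nearer to the members in level, the median difference of Gr-1+ cells was -0.89 from DC and -0.75 from macrophages. The comparisons share libraries, so each library's value enters more than once.

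**Figure D3:**
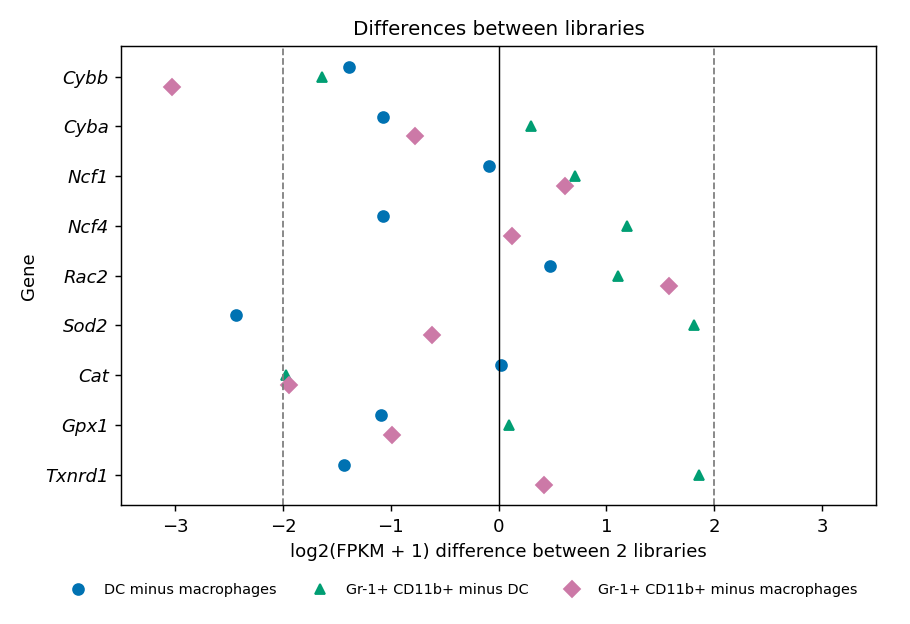
Difference of each gene between pairs of libraries on the log2(FPKM + 1) scale, with the size limit of 2 as dashed lines. Each point compares 2 single libraries. Cybb in Gr-1+ cells against macrophages (-3.03) and Sod2 in DC against macrophages (-2.44) lie beyond the limit, and the remaining 25 points lie within it.

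The pathway around the members was read from 11 lists holding 117 genes, 116 of them in the tables and 111 at 1 FPKM or more in any library. In DC against macrophages, 1 of the 111 was higher and 11 were lower in DC, where 1.53% and 2.31% of all genes were. In Gr-1+ cells against DC, 13 were higher and 7 lower, against 3.65% and 6.28% of all genes. Against macrophages 5 were higher and 7 lower, and of all genes 1.41% and 3.41%. These counts hold the 9 members. With equal library sums 5 were lower in DC than in macrophages, and Gr-1+ cells had 10 higher and 12 lower than in DC. With median-ratio scaling Gr-1+ cells had 22 higher and 3 lower than in DC, and 11 higher and 1 lower than in macrophages, so the balance of directions rests on the scaling. Shares of all genes were taken as deposited only, so the counts under other scalings have none beside them. Of the 7 complex genes read here, Cybb alone passed as deposited, as lower in Gr-1+ cells than in macrophages.

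Of 19 assembly and activation genes, 1 was higher and 3 were lower in DC than in macrophages, where 1.53% and 2.31% of all genes were. Fpr1 and Fpr2, receptors for formyl peptides that trigger the oxidase, were lower in DC (-2.29 and -3.13), Fpr1 not with equal library sums, and Tlr2 was the third. Fpr1 was at 1407 FPKM in Gr-1+ cells, 92.1 in macrophages and 18.0 in DC, and Fpr2 at 226, 61.3 and 6.11. Hvcn1, the proton channel that balances the charge moved by the oxidase, ran the other way, with 138 FPKM in DC against 22.0 in macrophages and 4.20 in Gr-1+ cells, the last below the silent-gene level. B cells also express this channel. The B cell gene Cd79a was at 1489, 59.3 and 35.8 FPKM in that order, and its cells' part in the Hvcn1 value was not tested. Arhgdib, which holds Rac in the cytosol, was near 1200 FPKM throughout, at 1212, 1239 and 1120, and Rap1b was at 333, 538 and 393.

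Other oxidases of the family were low. Of 9 NOX and DUOX genes and their partners, DC had 4 above the silent-gene level, macrophages 0 and Gr-1+ cells 1. Those in DC were Nox1 at 0.938 FPKM, Noxa1 at 2.08, Noxo1 at 3.32 and Duoxa2 at 3.68, and that in Gr-1+ cells was Noxa1 at 10.1. This count follows the silent-gene levels, which differ between the libraries: Nox1, Noxo1 and Duoxa2 were at 2.01, 6.04 and 8.87 FPKM in Gr-1+ cells, above their DC values but under the level there. All 6 genes that reached 1 FPKM in any library had a positive difference in Gr-1+ cells from DC. Of them Noxa1 alone was above the silent-gene level in Gr-1+ cells. The median of the silent genes was itself 0 FPKM in DC and 1.64 in Gr-1+ cells, so these signs are not read as expression. Noxa1 was higher in Gr-1+ cells than in macrophages, with a difference of 2.08, but not with equal library sums. Its level was barely above background, epithelial markers were also higher, and their part was not tested. Myeloperoxidase (Mpo), the granule enzyme that makes hypochlorous acid from peroxide, was below the silent-gene level in every library, at 0.250 and 0.169 FPKM in macrophages and Gr-1+ cells and listed at 0 in DC. Nos1 and Lpo were also below it in each. Inducible nitric oxide synthase (Nos2) was at 1.87, 12.5 and 19.3 FPKM, and was lower in DC than in both others, except against macrophages with equal library sums.

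**Figure D4:**
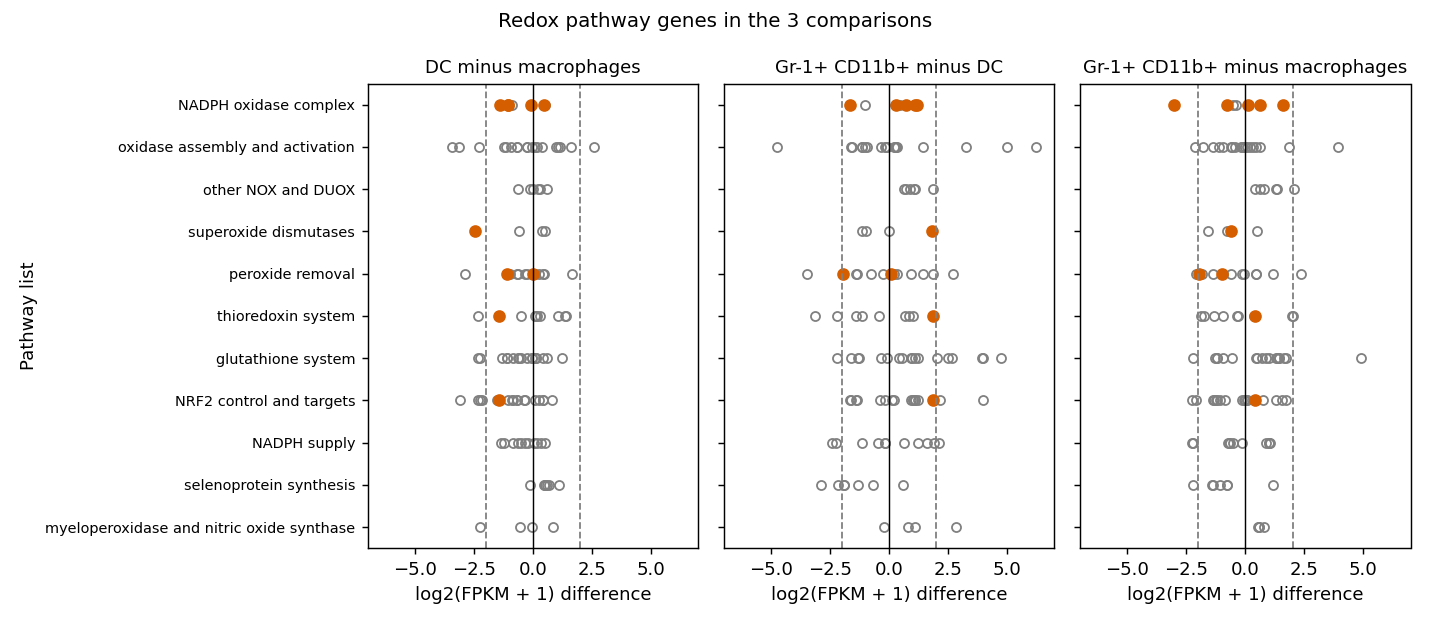
Differences of the pathway genes at 1 FPKM or more in any library, on the log2(FPKM + 1) scale, 1 row per list and 1 panel per comparison of 2 libraries. Filled points are the 9 members, open points are other genes, and dashed lines mark the size limit of 2. Most points of each panel lie within the limit, and the glutathione row in Gr-1+ cells against DC has 6 genes beyond it on the right and 1 on the left.

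Of 13 genes of peroxide removal, at most 1 was higher and 1 lower in a comparison as deposited. Over the comparisons, 1.41% to 3.65% of all genes were higher and 2.31% to 6.28% lower. Prdx5, a peroxiredoxin of mitochondria, peroxisomes and cytosol, was lower in DC than in both others, at 204 FPKM against 1490 in macrophages and 1353 in Gr-1+ cells. Prdx4, the peroxiredoxin of the endoplasmic reticulum, was higher in DC than in Gr-1+ cells, at 173 against 14.5 FPKM, with 54.8 in macrophages. Secretory plasma cells use that compartment heavily. The plasma cell gene Jchain was at 18847, 982 and 352 FPKM across DC, macrophages and Gr-1+ cells, and its cells' part was not tested. Prdx1 was lower in Gr-1+ cells than in macrophages, at 128 against 550 FPKM, though not with median-ratio scaling. Gpx2, a glutathione peroxidase of gut epithelium, was higher in Gr-1+ cells than in macrophages, at 164 against 31.6 FPKM. The epithelial gene Krt8 was at 361 and 101 in those libraries, and the part of epithelial RNA was not tested.

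In the glutathione system, 6 of 18 genes were higher in Gr-1+ cells than in DC and 1 was lower, with a median of 0.94, where 3.65% of all genes were higher and 6.28% lower. Against macrophages 1 of the 18 was higher (Ggt1) and 1 lower (Glrx3), where 1.41% and 3.41% of all genes were. Gsr, which regenerates glutathione with NADPH, was at 450 FPKM in Gr-1+ cells, 145 in macrophages and 28.4 in DC. Slc7a11, the cystine importer, was at 42.4, 12.2 and 1.80, and Ggt1, which cleaves extracellular glutathione, at 44.3, 0.533 and 0.691. Glrx and Mgst1 were at 400 and 253 FPKM in Gr-1+ cells against 61.9 and 43.8 in DC. Ggt5 was the sixth, and Glrx3 was lower, at a level in Gr-1+ cells below the silent-gene level. With each of the other scalings 5 or 6 of the 18 were higher. Gsr and Slc7a11 were also lower in DC than in macrophages, but not with equal library sums.

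In the thioredoxin system, 1 of 10 genes was lower in DC than in macrophages, 2 were lower in Gr-1+ cells than in DC, and 1 was higher in Gr-1+ cells than in macrophages. Of all genes 2.31%, 6.28% and 1.41% were, in that order. With median-ratio scaling 2 (Txnrd1 and Sesn2) were higher and 1 (Sesn1) lower in Gr-1+ cells than in DC, so the balance turned. Srxn1, which repairs overoxidised peroxiredoxins, was at 94.5 FPKM in macrophages, 37.5 in Gr-1+ cells and 17.9 in DC. Sesn1, which takes part in the stress response, had 27.0 FPKM in DC and 9.66 in macrophages, and 2.21 in Gr-1+ cells was below the silent-gene level there. Txnip, a binding partner that inhibits thioredoxin, was at 218, 84.9 and 346 in the same order, and mitochondrial thioredoxin (Txn2) at 145, 128 and 65.7.

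Txnrd1 is also a target of NRF2, the factor that induces many redox genes and is encoded by Nfe2l2. Nfe2l2 was at 442 FPKM in macrophages, 440 in Gr-1+ cells and 97.7 in DC, and DC were lower than both by the size rule as deposited and with 2 of the 3 scalings. Of 18 genes of NRF2 control and its targets, 4 were lower in DC than in macrophages and 0 were higher (median -0.77). Of all genes 2.31% were lower and 1.53% higher (median -0.05). The 4 were Nfe2l2, Hmox1, Srxn1 and Slc7a11, and with equal library sums Hmox1 alone passed. Srxn1 was also counted in the thioredoxin list and Slc7a11 in the glutathione list. Hmox1, the heme-degrading enzyme gene, was at 167 FPKM in macrophages, 70.6 in Gr-1+ cells and 18.8 in DC. In Gr-1+ cells 2 of 18 were higher than in DC and 0 lower, and 0 were higher and 2 lower than in macrophages. With median-ratio scaling these counts were 4 and 0, and 2 and 0. As deposited, 3.65% of all genes were higher and 6.28% lower than in DC, and 1.41% and 3.41% than in macrophages. Sqstm1, an autophagy receptor, was the most abundant, at 765, 365 and 484 FPKM in macrophages, Gr-1+ cells and DC. The target Nqo1 was at 2.80 and 3.81 FPKM in DC and macrophages and Gclc at 16.5 and 12.1, and both were below the silent-gene level in Gr-1+ cells, at 7.07 and 4.66.

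NADPH feeds both the oxidase and the glutathione and thioredoxin reductases. Of 11 genes of NADPH supply, 0 passed between DC and macrophages, where 1.53% of all genes were higher and 2.31% lower in DC. In Gr-1+ cells 1 was higher and 2 were lower than in DC, and 0 were higher and 2 lower than in macrophages. Of all genes 3.65% were higher and 6.28% lower than in DC, and 1.41% and 3.41% than in macrophages. G6pdx, the first enzyme of the pentose phosphate pathway, was at 151 FPKM in Gr-1+ cells, 71.7 in macrophages and 39.4 in DC, and Taldo1 at 1006, 506 and 326. Pgd, which yields NADPH in the same pathway, was the higher one, at 149 FPKM against 33.9 in DC, but not with equal library sums. With median-ratio scaling G6pdx and Taldo1 passed with it. Idh2, the mitochondrial NADP isocitrate dehydrogenase gene, and Pgls were the lower ones, and with median-ratio scaling neither was. Of 7 genes for the synthesis of selenoproteins such as Gpx1 and Txnrd1, 0 passed in any comparison as deposited, and with equal library sums Secisbp2 and Trnau1ap passed as lower in Gr-1+ cells than in DC. Trnau1ap was at 55.8, 39.9 and 14.2 FPKM across DC, macrophages and Gr-1+ cells and Sephs2, which makes the selenium donor, at 29.4, 19.2 and 44.3. Eefsec, the elongation factor for selenocysteine, was at 14.1, 9.57 and 5.12, the last below the silent-gene level.

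The genes whose values were most like those of each member were taken from 3461 genes at 10 FPKM or more in every library. Likeness was the largest distance between log2 values centred on their mean over the 3 libraries, and 3 values give a weak measure. For Cybb the nearest were P2rx4 at a distance of 0.10, Ms4a4c at 0.10 and Pld4 at 0.12, and 7 genes lay within 0.2. P2rx4 encodes the ATP-gated channel that the series title concerns, and macrophages, DC and Gr-1+ cells had 203, 73.4 and 25.9 FPKM of it. For Sod2 the nearest were Ralb at 0.11, Rab32 at 0.15 and Csf2ra at 0.16, and 4 genes lay within 0.2. Profiles of Cat, Ncf1, Gpx1 and Cyba were common, with 105, 77, 74 and 73 genes within 0.2. For Txnrd1 the nearest were Myo1f, Timp2 and Lamp2, for Ncf4 Irgm1, Cib2 and Rhbdf2, for Cyba Mapk6, Vamp8 and Mknk1, and for Gpx1 Atp6v1b2, Fuca2 and Gnpda1. For Rac2 they were Osgin1 and the epithelial genes Lgals4 and Cldn7, with Lgals4 at 208, 99.6 and 68.5 FPKM in Gr-1+ cells, DC and macrophages.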

How the data were processed

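The authors deposited 1 FPKM value per gene symbol and library (1 library per population). Per the submitters' processing notes, Cufflinks 2.2.1, TopHat2 2.0.13, SAMtools 0.1.19, Bowtie2 2.2.3 and the build mm10 were used, in roles that are not stated. cDNA was made from total RNA with a SMART-Seq HT kit, per the labels' protocols. The sources used here do not state the annotation, strandedness, filters or pooling of mice. Without strand, Ncf1 cannot be told from the overlapping Gtf2ird2 (1.66 to 5.11 FPKM), and Eid3 lies within Txnrd1 (0.362 to 2.00 FPKM). A gene overlapping Cyba was not analysed here.

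Values were used as deposited, and log2 was taken after adding 1. Coordinates and lengths came from GENCODE M21 (mm10 is GRCm38). Depth was estimated from FPKM times length in genes with 1 transcript over 800 nt, where 1 fragment was worth 0.124, 0.165 and 0.445 FPKM on 1 kb for DC, macrophages and Gr-1+ cells, and 72.3%, 62.2% and 65.4% of low values lay within 0.2 of a whole multiple. Fragment numbers used the longest coding transcript and are approximate. Intervals of ratios took the log of both fragment numbers as normal.

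The members, lists and rules were chosen with earlier results of these data known. Named were all members, the complex and dismutase lists, and the 3 highest and 3 most different genes of other lists, to which Gpx4, Tlr2, Secisbp2, Sesn2, Mpo, Nqo1, Gclc, Ggt5, Glrx3, Nox1, Cldn7 and the named markers were added after their values were seen. The size rule and step estimate were tested on simulated data. Alternatives were pseudocounts of 0.1 and 10, 3 scalings, subtraction of the silent-gene median, floors of 1 and 30 FPKM and log2 limits of 1 and 3. The pathway lists under the 3 scalings were added after the data were seen. Some genes of the lists are not reported here. Python 3.11.15, NumPy 2.4.6, pandas 2.3.3, SciPy 1.17.1 and matplotlib 3.10.9 were used.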

Additional observations from a re-analysis of the deposited data

How the results depend on the processing

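Of the 27 differences of the members, 23 kept their sign under both other pseudocounts, the 3 scalings and subtraction of the silent-gene median. The 4 others were small: Ncf1 in DC against macrophages was 0.30 with equal sums, Cat there was -0.17 with median-ratio and -0.14 with 75th percentile scaling, and Cyba and Gpx1 in Gr-1+ cells against DC were -0.07 and -0.28 with equal sums. Equal sums, median ratios and 75th percentiles shift every gene by -0.37, 0.78 and 0.77 for Gr-1+ cells against DC, by 0.02, 0.58 and 0.60 for Gr-1+ cells against macrophages, and by 0.39, -0.20 and -0.17 for DC against macrophages. The calls of Sod2 (DC lower than macrophages) and Cybb (Gr-1+ cells lower than macrophages) held under every alternative, except that Sod2 was lost (0 members) at a log2 limit of 3. With a log2 limit of 1, 6 members were lower in DC than in macrophages, 4 were higher and 2 lower in Gr-1+ cells than in DC, and 1 was higher and 2 were lower than in macrophages. Shares of all genes were taken with the main settings only. The counts at other settings thus have no share beside them and are not read as a trait of the members. With median-ratio and with 75th percentile scaling, 2 members were higher in Gr-1+ cells than in DC and 1 than in macrophages. With equal sums 2 were lower than in DC. With a pseudocount of 0.1 or the silent-gene median subtracted, 1 was lower than in DC and 2 were lower than in macrophages, the added gene being Cat. Of the pathway lists, with equal sums 2 genes were higher and 5 lower in DC than in macrophages, and 12 were lower in Gr-1+ cells than in DC. With median-ratio and with 75th percentile scaling 22 were higher and 3 lower in Gr-1+ cells than in DC, and 11 and 12 were higher and 1 lower than in macrophages. These list values were added after the data were seen. All 52 alternative values of the ratios stayed within their counting intervals. These alternatives added 1 FPKM to both genes or subtracted the silent-gene median, at most 1.64 FPKM, so they could move most ratios little. That median was 0 in DC, where the subtraction changed nothing. No paired analysis was possible because each population had 1 library, and leaving out a replicate was not possible for the same reason. Among the 9 members, Cat in Gr-1+ cells had the fewest fragments, about 58.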
